A study of Arabidopsis thaliana with 75 samples.

Results

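The genes described here were those whose transcripts were more abundant in the hairless line cpc try than in ttg, gl3 egl3 and wer myb23, the 3 hairy lines, with 15 named loci set aside, among them the regulators GL2, TTG2, TRY and ETC1. A gene was taken when the mean log2 signal of each hairy line was at least 1 (2-fold) below that of cpc try, in the arrays run at Michigan and in those run at Duke, so that 6 differences had to pass. Of 21440 genes measured, 72 passed, 15 of these were the named loci, and 57 remained. They are called non-hair genes below, a name for passing this rule that says nothing of their level in wild-type non-hair cells. The genes were thus chosen by their signal on the 24 arrays of these 4 lines, and those values are given as a description, with no test.

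In the root epidermis of Arabidopsis, a complex of the MYB protein WER or MYB23, the bHLH proteins GL3 and EGL3 and the WD-repeat protein TTG drives the non-hair fate, in large part through the homeodomain gene GL2, while the small MYB proteins CPC and TRY move between cells and keep the complex from acting in hair cells. GL2 in turn represses RHD6, a bHLH gene needed to start a hair. Loss of the complex or of GL2 therefore gives hairs in excess, and loss of CPC with TRY, or of RHD6, gives roots with few or no hairs. Non-hair cells elongate without forming an outgrowth.

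Every line carried WER::GFP, a green fluorescent reporter under the WER promoter that marks developing epidermis of both cell types, preferentially non-hair cells, and the lateral root cap. Seedlings were 5 days old, each replicate pooled the root tips of many seedlings, and GFP-positive protoplasts were sorted before RNA was hybridised to Affymetrix ATH1 arrays, 3 for each of 25 groups. The mutant groups were cpc-1 try-82, wer-1 myb23-1, gl3-1 egl3-1 and ttg1-13 at both facilities, and, at Michigan only, gl2-1, rhd6-1, bhlh66-1, cobl9-1, cow1-3, csld3-1, myc1-1, rhd2-1, lrx1-4, ire1-2, mrh1-1, mrh2-1 and mrh3-3. The wild type was Columbia, also at Michigan only. In 3 further groups, rhd6-1 seedlings were first grown on unsupplemented medium. They were then transferred to plain medium (MS) or to medium with the auxin IAA or the ethylene precursor ACC. Each mutant was 1 line made by crossing in the reporter. The accession of the mutant lines was not given in the sources used here, so background differences between lines cannot be told apart from the mutations. In sorted bulk RNA, a change in the share of non-hair cells and a change in RNA per cell cannot be told apart either.

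The 63 Michigan arrays had medians between 6.5 and 6.86 and the 12 Duke arrays between 6.02 and 6.14, so levels were compared only within a facility. RHD6 gave 9.68, 9.69 and 9.41 in wild type and 6.19, 5.45 and 6.13 in rhd6, so the mutated gene was low in the line labelled for it. GL2 transcript was still present in gl2-1, a frameshift allele (8.0, 7.42 and 7.7 against 9.08, 8.04 and 7.81 in wild type), so it checks nothing. Some arrays stood apart in the non-hair genes. In gl3 egl3 replicate 2 at Michigan, 23 of the 57 genes were more than 1 log2 unit above both other arrays of the line, and 29 lay within 1 of the cpc try mean. In wer myb23 replicate 2 at Michigan these numbers were 19 and 26. Without the first array 62 genes would have been taken, all 57 among them, and without the second 69, which held 56 of the 57. Other arrays held genes in the list. In cpc try replicate 1 at Michigan, 11 genes were more than 1 above both other arrays, and without it 43 genes were taken, 39 of them among the 57. In wer myb23 replicate 2 at Duke, 16 genes were more than 1 below both others, and without it 50 were taken, 48 of them shared. Without wer myb23 replicate 3 at Michigan 42 remained.

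Over the 57 genes, the smallest of the 6 differences ranged down to the threshold itself. Just inside were PIP2E (-1.01), AT5G40960 (-1.02), AT5G16030 (-1.02), UGT84A2 (-1.02) and MEE62 (-1.02), and just outside were AT5G59540 (-0.99), sks17 (-0.97), AT1G25460 (-0.97), PSK3 (-0.97) and AT4G22280 (-0.97). All 9 hairy-line arrays lay below all 3 cpc try arrays for 34 of the 57 genes at Michigan, where 3.3% of all genes did so, and for 51 at Duke, where 2.62% did. These counts follow from the rule. Of the 57 genes, 37 carry a product description in the study's table of core genes, and 9 were named through their RefSeq symbol (TAIR10.1). The other 11 were assigned no function here, although 56 of the 57 genes match a RefSeq locus. These 11 are called unannotated or not annotated below, and the counts by function leave out whatever products they have. AT4G34588 shared every value with AT4G34590, 1 of the named loci, and is not separate evidence. AT2G28710 and AT2G28720 are neighbours.

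**Figure D1:**
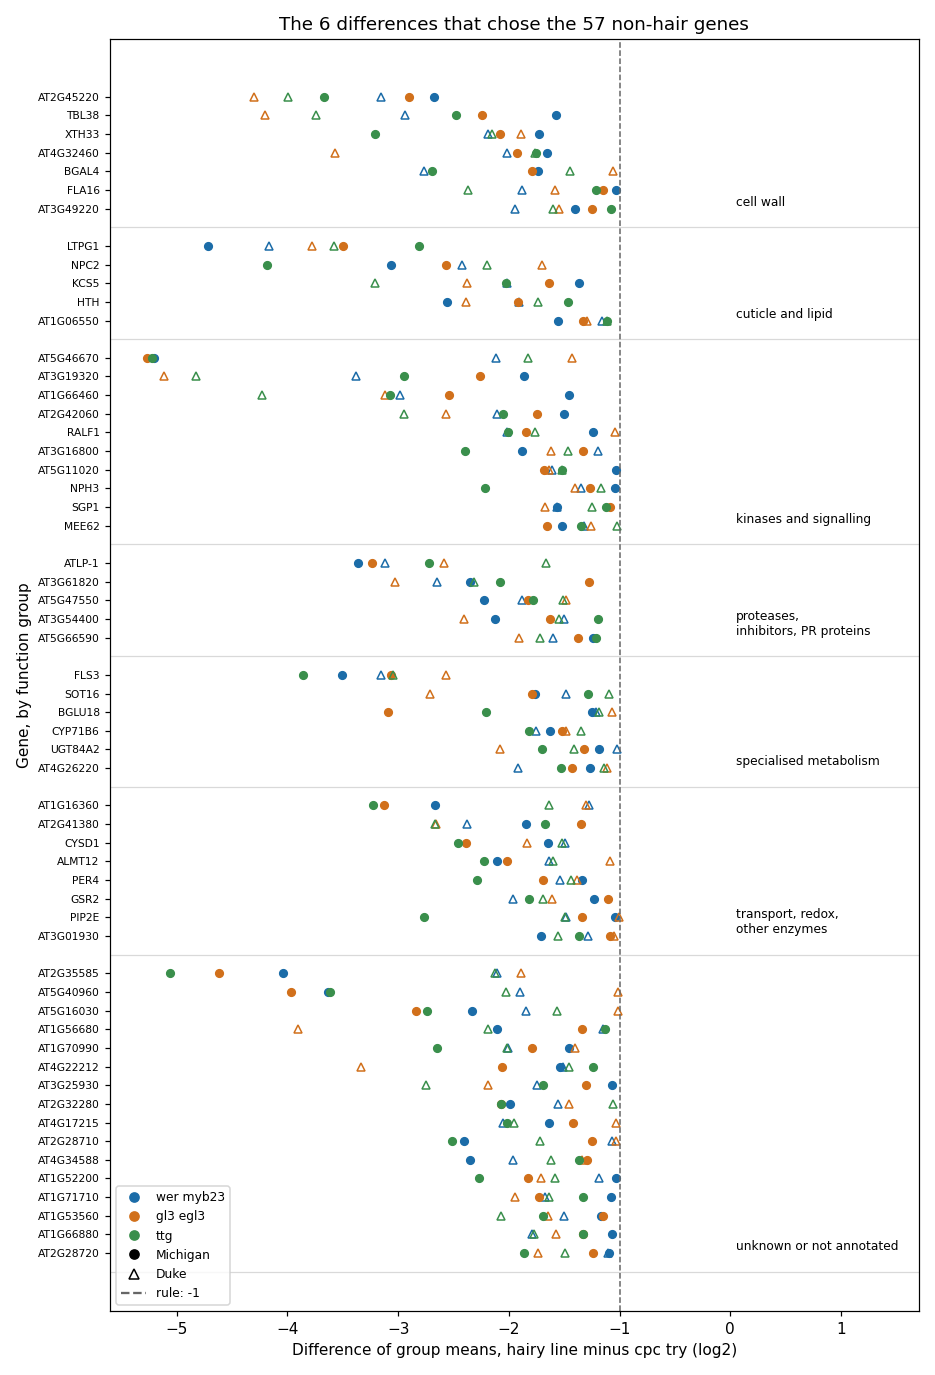
Difference in mean log2 signal between each hairy line (colours) and cpc try at Michigan (filled circles) and Duke (open triangles) for the 57 non-hair genes, ordered by function group, with the threshold of -1 as a dashed line. All points lie at or left of the line by the rule, and LTPG1, AT5G46670 and AT2G45220 have the lowest means, at -3.76, -3.51 and -3.45.

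The genes were grouped by product description and are described in turn, by the mean of the 6 differences. Cell wall genes numbered 7, with a median of -2.12 and a range from -3.45 to -1.47. The lowest was AT2G45220, named PME17 in RefSeq, a pectinesterase, an enzyme that removes methyl groups from wall pectin. At Michigan its signal lay between 4.77 and 8.98 (median 5.69) on the 9 hairy-line arrays and at 10.6, 8.69 and 8.36 in cpc try. At Duke the hairy lines lay between 5.25 and 8.8 (median 6.59) and cpc try at 11.13, 9.98 and 10.73. The groups overlapped at Michigan and did not overlap at Duke, and the mean difference was -3.45, or 10.9-fold. TBL38, of a family linked to wall polysaccharide acetylation, had a mean difference of -2.87, with cpc try at 10.23, 10.27 and 10.64 at Duke against hairy lines between 5.4 and 8.7 (median 6.34). Its Michigan arrays overlapped too. XTH33, a xyloglucan endotransglucosylase, which cuts and rejoins wall xyloglucan, differed by -2.21, and AT4G32460, a wall-located protein of no given function, by -2.12. Neither overlapped at either facility. The others were FLA16, a fasciclin-like arabinogalactan protein, BGAL4, a beta-galactosidase, and the pectinesterase AT3G49220.

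Of the 5 cuticle and lipid genes (median -2.11, from -3.76 to -1.26), LTPG1 had the lowest mean difference of all 57 genes. It encodes a GPI-anchored lipid transfer protein that helps to export surface lipids. At Michigan LTPG1 gave 10.03, 10.45 and 10.62 in cpc try against values between 5.29 and 8.0 (median 6.75) in the hairy lines, and at Duke 8.56, 9.59 and 9.67 against values between 4.87 and 5.94 (median 5.37). No hairy array reached a cpc try array, and each of the 6 differences was at or below -2.81. NPC2, a non-specific phospholipase C, differed by -2.69, KCS5, an enzyme that elongates very long chain fatty acids for waxes, by -2.11, and HTH (HOTHEAD), an oxidoreductase whose loss fuses floral organs, by -1.99. AT1G06550, of the enoyl-CoA hydratase family, completed the group.

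The 10 kinase and signalling genes had a median of -1.65. AT5G46670, a CHP-rich zinc finger protein, was lowest at -3.51. Its Michigan values were 9.27, 7.98 and 7.91 in cpc try and between 2.88 and 3.43 (median 3.13) in the hairy lines, and its Duke values 7.46, 7.14 and 7.45 and between 4.99 and 6.1 (median 5.53). The groups did not overlap at either facility, but the differences at Michigan, down to -5.27, were larger than those at Duke, of which the smallest was -1.43. AT3G19320, a leucine-rich repeat protein, followed at -3.4, with Duke values of 9.69, 10.23 and 10.66 in cpc try and between 4.82 and 7.9 (median 5.28) in the hairy lines. The kinase AT1G66460 differed by -2.9 and AT2G42060, a second CHP-rich protein, by -2.15. For these last genes the Michigan arrays overlapped. RALF1, a peptide that signals through a receptor kinase, the kinases AT5G11020 and MEE62, the phosphatase AT3G16800, the small G protein SGP1 and NPH3, a phototropism protein, were the rest.

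Among the 6 genes of specialised metabolism (median -1.63), FLS3, of the flavonol synthase family, was lowest at -3.2. FLS3 gave 9.99, 8.09 and 7.57 in cpc try at Michigan against values between 4.39 and 6.5 (median 4.94) in the hairy lines, without overlap. SOT16, the sulfotransferase that completes the glucosinolate core, differed by -1.69, the beta-glucosidase BGLU18 by -1.67 and the cytochrome P450 CYP71B6 by -1.59, beside the glucosyltransferase UGT84A2 and the methyltransferase AT4G26220. Of the 5 proteases, inhibitors and pathogenesis-related proteins (median -1.78), the thaumatin-like ATLP-1 was lowest at -2.78, with 9.25, 9.72 and 10.09 in cpc try at Michigan and values between 5.53 and 7.29 (median 6.55) in the hairy lines. Its arrays did not overlap at either facility. The aspartyl proteases AT3G61820 (-2.28) and AT3G54400 (-1.73), the cysteine protease inhibitor AT5G47550 (-1.78) and AT5G66590, related to allergen V5, made up the group.

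Transport, redox and other enzymes numbered 8 (median -1.7). AT1G16360, of the LEM3/CDC50 family that partners lipid flippases, differed by -2.21, the methyltransferase AT2G41380 by -2.09, the cysteine synthase CYSD1 by -1.89 and the anion channel ALMT12, known from guard cells, by -1.78. PIP2E, an aquaporin, GSR2, a cytosolic glutamine synthetase, PER4, a peroxidase, and the nodulin family protein AT3G01930 were the other members. The remaining 16 genes were of unknown function or not annotated (median -1.69), led by AT2G35585 (-3.31), AT5G40960 (-2.69), AT5G16030 (-2.06) and AT1G56680 (-1.97). In AT2G35585, cpc try gave 9.94, 9.85 and 9.73 at Michigan and the hairy lines lay between 4.4 and 6.31 (median 5.13), with no overlap.

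Wild type was not used by the rule, and for most non-hair genes it lay between the hairy lines and cpc try. The rule itself set those lines apart, so a group outside it tends to fall between them, and this position is only a description. With the mean of the hairy lines at Michigan set to 0 and the cpc try mean to 100, wild type had a median position of 31.4 over the 57 genes, rhd6 78.0 and gl2 -3.07. Wild type was below 0 for 9 genes and above 100 for 4. The cpc try mean was 2-fold or more above wild type for 32 genes, and the hairy-line mean 2-fold or more below it for 15. Individual genes differed widely in this. For 14 genes wild type was below 10 on this scale, that is, near the hairy lines. AT5G46670 was 1 of them, at 2.98, 3.12 and 3.11 in wild type against 9.27, 7.98 and 7.91 in cpc try, and ATLP-1 another, at 7.43, 5.47 and 5.95. The others were AT3G16800, AT5G40960, BGLU18, AT5G16030, AT4G22212, AT1G53560, AT5G47550, AT5G11020, AT2G28720, AT2G32280, ALMT12 and AT1G16360. For 7 genes wild type was above 90, at the level of cpc try: AT2G45220, XTH33, BGAL4, RALF1, PER4, AT4G26220 and AT3G25930. AT2G45220 gave 8.99, 9.34 and 9.31 in wild type and 10.6, 8.69 and 8.36 in cpc try, and the mean of the hairy lines lay below both, although single hairy-line arrays reached 8.98. These classes were drawn after the values were seen.

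**Figure D2:**
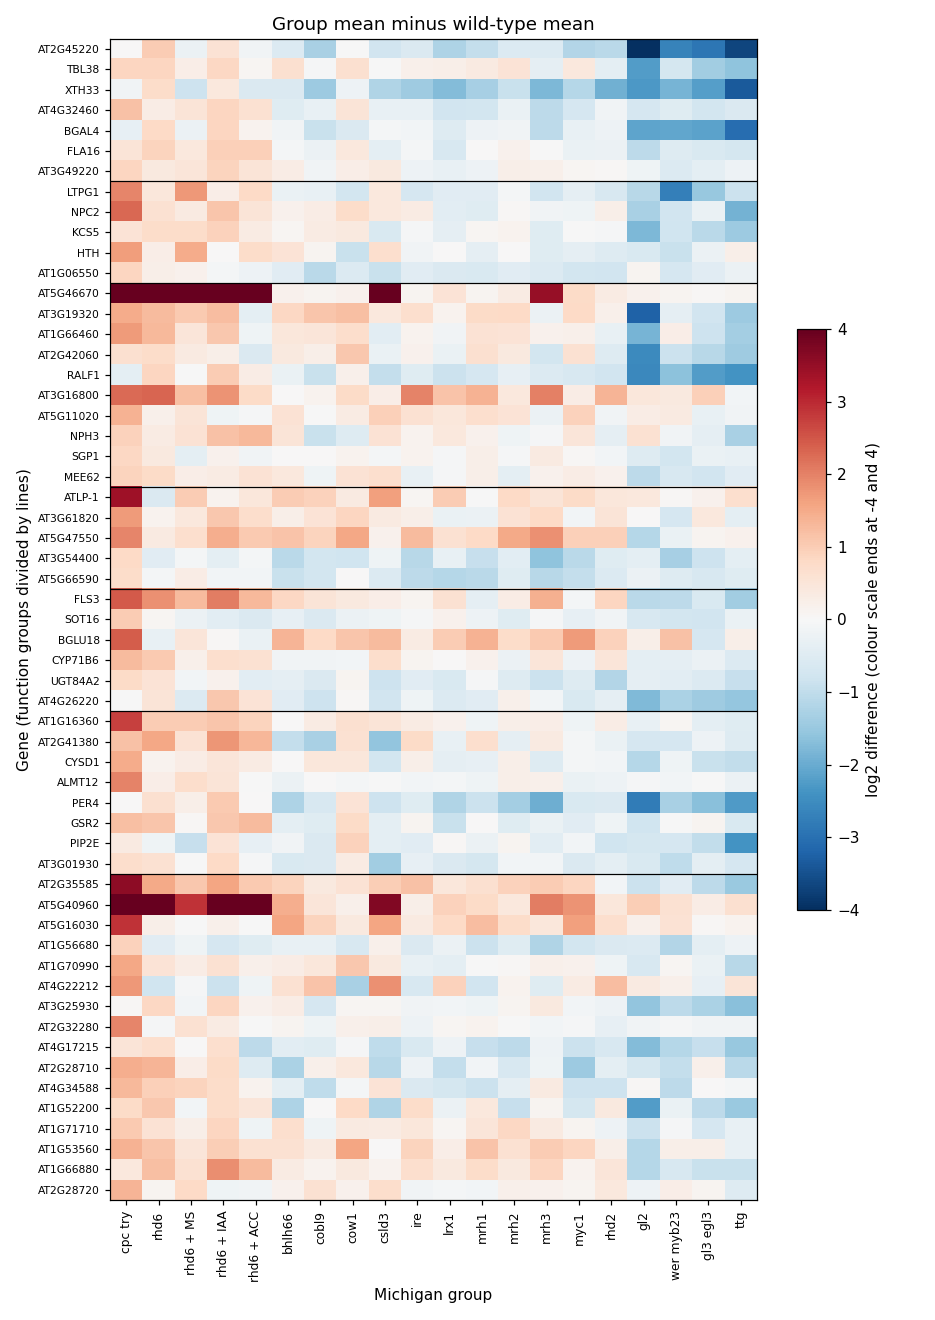
Mean log2 signal of each Michigan group minus the wild-type mean, for the 57 non-hair genes in rows divided by function group, with red for higher and blue for lower than wild type. The cpc try and rhd6 columns are mostly red, the gl2 and hairy-line columns mostly blue, and AT5G46670 and AT5G40960 are red also in csld3 and mrh3.

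The gl2 line, which makes hairs in excess although the complex above GL2 is intact, asks which non-hair genes need GL2. Of the 57 genes, 4 were lower in gl2 than in wild type (2-fold at 5% FDR, limma), none was higher, and the background of all genes called lower was 0.117% and of those called higher 0.0979%. AT2G45220 gave 4.77, 4.78 and 4.95 in gl2 and 8.99, 9.34 and 9.31 in wild type, a difference of -4.38 (SE 0.66, limma adjusted p = 0.000111). AT3G19320 gave 4.63, 4.34 and 4.71 against 7.81, 7.89 and 7.65, a difference of -3.22 (SE 0.58, limma adjusted p = 0.00173). Both stood far outside the spread of the wild-type arrays. KCS5 was at 6.6, 6.94 and 7.35 against 8.71, 8.6 and 9.0, a difference of -1.81 (SE 0.42, limma adjusted p = 0.0466). XTH33 was at 5.09, 5.95 and 6.8 against 7.68, 7.82 and 9.25, a difference of -2.3 (SE 0.54, limma adjusted p = 0.0482). The gl2 arrays of both genes lay below every wild-type array, but both calls lay close to the 5% FDR limit and were lost in most fits with 1 array left out. The call for KCS5 was lost without any 1 of the 6 arrays (differences from -2.0 to -1.62) and that for XTH33 without gl2 replicate 1 or 2 or any wild-type array (from -2.59 to -1.81), so that 2 genes were called without gl2 replicate 1 or 2 or any wild-type replicate and 3 without gl2 replicate 3.

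Beyond the calls, the list lay low in gl2 as a whole. The difference was negative for 45 of the 57 genes, with a median of -0.67 against 0.01 over all genes, and 22 genes were lower at an unadjusted p under 0.05 (1.82% of all genes) against none higher (1.26%). All gl2 arrays were below all wild-type arrays for 27 genes (4.46% of all genes) and above for 2 (6.06%). The cell wall genes had the lowest group median, -2.1, and the proteases, inhibitors and pathogenesis-related proteins the highest, -0.23. Arrays were also divided by a prefix in their sample descriptions (numbered, S or x), called array series here, an inference from the prefix alone. Wild type and gl2 each had 1 array in each of these 3 series, and within them the median was -0.6, -1.09 and -0.63. Genes that wild type held near cpc try were the low ones. The 7 genes above 90 had a median of -2.3 and the 14 genes below 10 a median of 0.18, values that share the wild-type arrays. Among the 14, AT5G46670, AT5G16030, ALMT12 and AT5G40960 had wild-type means of 3.07, 3.46, 3.51 and 3.91. These lie under the 25th percentile of gene means (4.22), so these genes had little room to fall. Compared with the hairy lines as a description, gl2 was 2-fold or more lower for 8 genes and higher for 1. The 8 endodermis markers checked had a median of -0.89 in the same comparison, with mean levels of 4.01 to 4.40 on the gl2 arrays and 4.84 to 5.48 on the wild-type arrays and none called, and their part in the result was not tested. The 8 hair markers, from RHD6 to MRH6, had a median of 0.1 with none called.

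In rhd6, which acts downstream of GL2 and makes few hairs, 3 non-hair genes were higher than in wild type (0.452% of all genes were called higher) and none was lower (1.43%). AT5G46670 rose most, from 2.98, 3.12 and 3.11 in wild type to 8.52, 7.65 and 8.47 in rhd6, a difference of 5.15 (SE 0.65, limma adjusted p = 3.47e-07). AT5G40960, of unknown function, gave 7.87, 8.64 and 9.2 against 3.65, 3.93 and 4.14, a difference of 4.67 (SE 0.6, limma adjusted p = 5.32e-07). In both genes the rhd6 arrays stood at the level of cpc try, which was at 8.47, 7.84 and 8.18 for AT5G40960. FLS3 gave 7.53, 7.86 and 8.35 in rhd6 and 6.24, 6.02 and 6.02 in wild type, a difference of 1.82 (SE 0.44, limma adjusted p = 0.0113), without overlap. Its adjusted p rose to 0.116 without rhd6 replicate 3, to 0.0513 without wild-type replicate 2 and to 0.0504 without wild-type replicate 3, at differences of 1.6, 1.78 and 1.78.

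The other 54 genes did not pass, yet 49 of the 57 differences were positive, 16 were 2-fold or more, and the median was 0.61 against 0.04 over all genes. All rhd6 arrays were above all wild-type arrays for 23 genes (8.79% of all genes) and below for none (6.94%), and 13 were higher at an unadjusted p under 0.05 (3.77% of all genes) against none lower (4.82%). The group medians were 0.81 for kinases and signalling, 0.8 for cell wall, 0.75 for unknown genes and -0.08 for proteases, inhibitors and pathogenesis-related proteins. Within array series the median was 0.56 (S) and 0.63 (x), since rhd6 had no array of the numbered series. All 8 hair markers were lower in rhd6. The mean over the 8 genes lay between 6.18 and 7.83 on the rhd6 arrays and between 10.4 and 10.5 on the wild-type arrays. RHD6, the gene mutated in this line, is among the 8, and its low signal follows from the genotype. The rhd6 mean was still 2-fold or more below cpc try for 18 of the 57 genes and above it for 3, as a description. The largest of these gaps was that of ATLP-1, at 6.38, 5.47 and 5.25 in rhd6 against 9.25, 9.72 and 10.09 in cpc try, and RALF1 was the gene most above, at 8.44, 9.18 and 10.1 against 9.44, 7.21 and 7.29.

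Neither gl2 nor rhd6 was used to choose the genes, so the comparison of a line with excess hairs and a hairless line can be made a second time between them. In gl2, 27 of the 57 genes were lower than in rhd6 and none was higher, against 1.18% of all genes called lower and 1.7% called higher. The differences ranged from -5.39 to 1.14 with a median of -1.48, against -0.02 over all genes, and 51 were negative. All gl2 arrays were below all rhd6 arrays for 37 genes (9.23% of all genes) and above for 2 (7.72%). At an unadjusted p under 0.05, 39 genes were lower (5.43% of all genes) and 2 higher (5.63%). The median was -1.68 in the S series and -1.75 in the x series, which both lines shared. Leaving out 1 array at a time gave 22 to 28 genes. Endodermis markers had a median of -0.72 here and levels of 4.69 to 5.51 in rhd6, with none called, and their part was not tested.

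By function, 5 of 7 cell wall genes were lower in gl2. AT2G45220 led with 4.77, 4.78 and 4.95 in gl2 and 9.82, 10.2 and 10.66 in rhd6, a difference of -5.39 (SE 0.66, limma adjusted p = 1.67e-07). TBL38 (-3.08), XTH33 (-3.03), BGAL4 (-2.9) and FLA16 (-1.92) were the others that were lower, while AT4G32460 and AT3G49220, at -0.97 and -0.54, did not pass. Among cuticle and lipid genes, KCS5 (-2.55), NPC2 (-1.9) and LTPG1 (-1.57) were lower, and HTH and AT1G06550 did not pass, at -0.89 and -0.12. LTPG1, the gene with the largest mean difference in the lines that chose it, was thus among the smaller of the called genes here, at 6.69, 7.33 and 7.87 in gl2 against 9.32, 8.92 and 8.35 in rhd6 (adjusted p = 0.00854 in limma).

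Of 10 kinase and signalling genes, 6 were lower. AT3G19320 gave 4.63, 4.34 and 4.71 against 8.57, 9.15 and 9.43, a difference of -4.49 (SE 0.58, limma adjusted p = 4.32e-07). AT5G46670 gave 3.27, 3.22 and 3.25 against 8.52, 7.65 and 8.47, a difference of -4.97 (SE 0.65, limma adjusted p = 6.08e-07). Here gl2 stood at the wild-type level, which was close to the low end of the Michigan arrays (5th percentiles from 2.8 to 3.01). RALF1 (-3.44), AT2G42060 (-3.3), AT1G66460 (-3.13) and MEE62 (-1.8) followed. SGP1, at -0.89, passed the FDR (adjusted p = 0.00715 in limma) but not 2-fold. FLS3, with 5.2, 4.91 and 4.93 against 7.53, 7.86 and 8.35, led 3 of 6 genes of specialised metabolism, with a difference of -2.9 (SE 0.44, limma adjusted p = 1.31e-05). AT4G26220 (-2.29) and CYP71B6 (-1.43) were the others. SOT16, UGT84A2 and BGLU18 did not pass, at -0.73, -0.9 and 0.55.

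PER4 (-3.46), GSR2 (-1.92), AT1G16360 (-1.31) and CYSD1 (-1.29) were lower among the 8 transport, redox and other enzymes, a count that fell to 2 without gl2 replicate 1 or 2. Of the 16 unknown or unannotated genes, 6 were lower, a count of 3 without rhd6 replicate 3. AT5G40960 had the lowest p of these, with 4.68, 5.14 and 4.88 against 7.87, 8.64 and 9.2, a difference of -3.67 (SE 0.6, limma adjusted p = 3.87e-05). None of the 5 proteases, inhibitors and pathogenesis-related proteins passed in limma, with differences from -1.48 for AT5G47550 to 1.01 for ATLP-1, beside a median of -1.78 for the 6 differences of the hairy lines. ATLP-1 gave 6.65, 6.59 and 6.9 in gl2 and 6.38, 5.47 and 5.25 in rhd6 (adjusted p = 0.387), with every gl2 array above every rhd6 array. AT4G22212, not annotated, had the other largest positive difference, 1.14 (adjusted p = 0.311). Of the 27 genes lower in gl2, 18 have an entry in the study's table of core genes, and of the other 30, 19. All 7 genes for which wild type stood above 90 were among the 27, as were 3 of the 14 below 10.

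**Figure D3:**
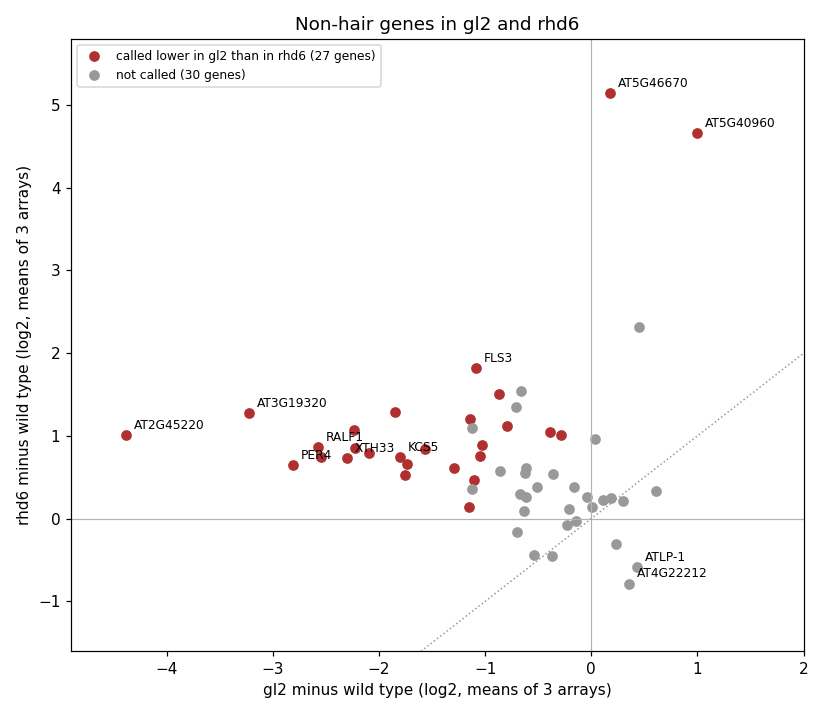
Difference from wild type in gl2 (x axis) and in rhd6 (y axis), both in log2 units of 3-array means, for the 57 non-hair genes, with the 27 genes called lower in gl2 than in rhd6 in red and the dotted line marking equal differences. Most points lie above the line, AT2G45220 and AT3G19320 far to the left, AT5G46670 and AT5G40960 at the top, and ATLP-1 and AT4G22212 below it.

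**Figure D4:**
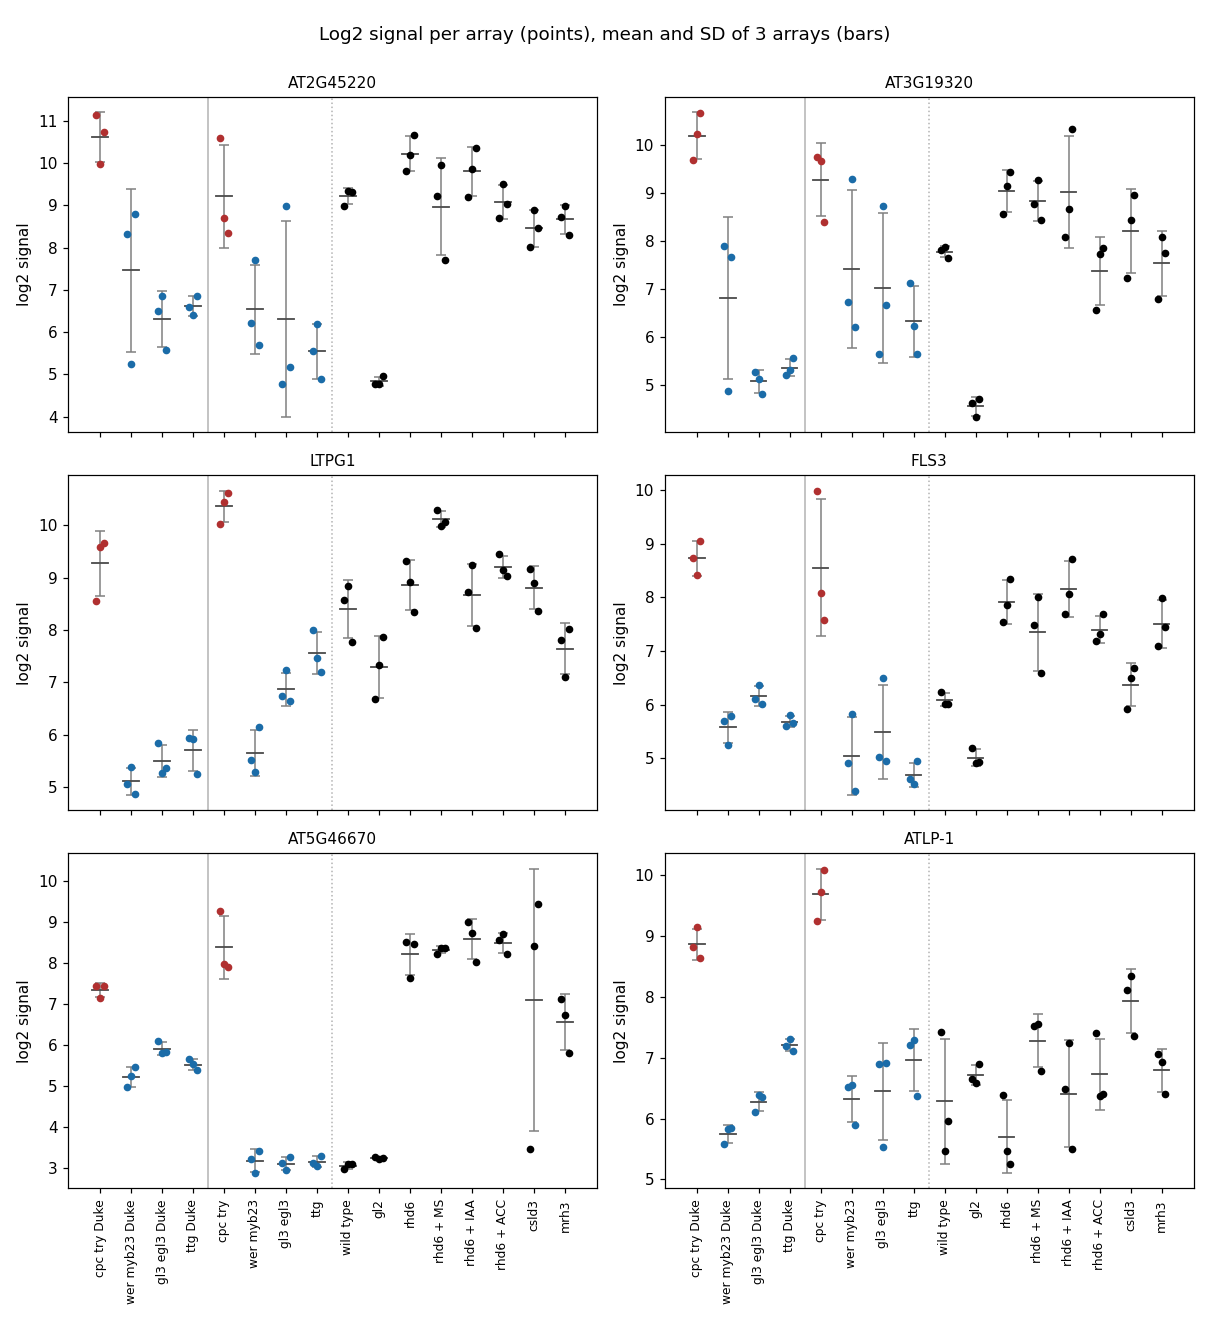
Log2 signal of each array (points) with the mean and SD of 3 arrays (bars) for 6 non-hair genes by group, with cpc try in red, hairy lines in blue and other groups in black, Duke to the left of the solid line and the lines of the rule to the left of the dotted line. AT2G45220 is near cpc try in wild type, AT5G46670 is high in rhd6 with or without hormone, and ATLP-1 is high mainly in cpc try.

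IAA and ACC restore hairs to rhd6 and were used to ask how far the hormones act on these genes without RHD6. At the study's threshold for hormones (2-fold at 0.5% FDR), none of the 57 genes was called in limma after IAA, where 0.135% of all genes were called higher and 0% lower, nor after ACC (0.34% and 0.00466%). At an unadjusted p under 0.05, 9 were higher (11.1% of all genes) and 3 lower (15.4%) after IAA, and 3 higher (5.41%) and 6 lower (2.85%) after ACC. Of the 8 hair markers, 4 were called higher after IAA and 6 after ACC. The mean over the 8 genes lay between 5.69 and 7.04 on the MS arrays. It lay between 8.27 and 9.0 on the IAA arrays and between 8.87 and 9.25 on the ACC arrays. The mutated gene RHD6 is among the 8 and was called after neither. So few of all genes were called that the lack of calls among the 57 is near the background. It does not set these genes apart from others. At the 5% FDR used for lines, LTPG1 and PIP2E would have been called after IAA. Both treatments share the MS arrays.

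The lowest adjusted p after IAA was that of LTPG1, with 8.74, 9.24 and 8.04 against 10.3, 9.996 and 10.07 on MS, a difference of -1.45 (SE 0.38, limma adjusted p = 0.0375). PIP2E went the other way, with 8.03, 7.37 and 7.94 against 6.35, 6.52 and 6.01, a difference of 1.49 (SE 0.44, limma adjusted p = 0.0498). In both, the treated and untreated arrays did not overlap. HTH gave 6.71, 7.69 and 5.42 with IAA and 8.15, 7.92 and 8.14 on MS, a difference of -1.46 (SE 0.51, limma adjusted p = 0.0733), and AT4G26220 7.05, 6.72 and 7.36 and 5.54, 6.12 and 4.58, a difference of 1.63 (SE 0.5, limma adjusted p = 0.0546). IAA replicate 3 was apart, with 13 genes more than 1 above both other arrays. The median over the 57 genes was 0.49 after IAA, against 0.01 over all genes, with 10 genes separate and higher (15.3% of all genes) and 5 separate and lower (16.6%). Lateral root cap and stress markers also had positive medians after IAA, of 0.91 and 0.68, with none called, and their part was not tested.

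After ACC the median was -0.04, equal to that of all genes. GSR2 differed by 1.2 (SE 0.4, limma adjusted p = 0.245) and AT3G19320 by -1.45 (SE 0.58, limma adjusted p = 0.444), both short of the threshold. AT3G19320 was at 6.56, 7.73 and 7.85 with ACC, 8.78, 9.27 and 8.44 on MS and 8.08, 8.67 and 10.33 with IAA. Set directly against each other, a comparison chosen after the data were seen, IAA and ACC gave no gene past the threshold (0% of all genes higher and 0.014% lower), with 6 genes higher (2.09% of all genes) and none lower (1.46%) with IAA at an unadjusted p under 0.05 and a median of 0.38. For AT3G19320 the direct difference was 1.65 (SE 0.58, limma adjusted p = 0.992). Of the 2 genes that rose most in rhd6, AT5G46670 gave 8.23, 8.38 and 8.37 on MS, 9.0, 8.74 and 8.04 with IAA and 8.57, 8.71 and 8.23 with ACC, all far above its wild-type arrays. AT5G40960 gave 7.23, 7.39 and 5.75 on MS, all below the 3 arrays labelled rhd6 alone, 8.95, 7.06 and 8.1 with IAA and 8.28, 8.21 and 7.66 with ACC. The ACC arrays lay above the MS arrays and the IAA arrays overlapped them, with differences of 1.26 (SE 0.6, limma adjusted p = 0.582) and 1.24 (SE 0.6, limma adjusted p = 0.175), neither past the threshold.

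The other 11 mutant lines were 9 with defects in hair growth, beside myc1 and bhlh66 with mutations in genes of bHLH regulators. Compared with the same wild-type arrays, they gave 627 pairs of gene and line. Of these, 8 passed 2-fold at 5% FDR in limma, 6 higher and 2 lower, and all were in csld3 (1.03% of all genes called higher and 2.02% lower) or mrh3 (0.979% and 1.02%). CSLD3 is a cellulose synthase-like protein and MRH3 a phosphatase, both needed for hair growth. In the other 9 lines no non-hair gene was called, where 0.00207% of all genes over the 9 comparisons were called higher and 0.00829% lower. At an unadjusted p under 0.05 these lines held 22 higher (4.29%) and 31 lower (6.04%) of 513 pairs, near the 3.89% and 4.61% of all genes. At 2-fold and q under 0.05 in its own test, the paper lists some of its core non-hair genes as changed in each of these 9 lines. Its gene set and its test both differ from those used here.

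AT5G46670 and AT5G40960 were higher in both lines. In csld3 AT5G46670 gave 3.47, 8.42 and 9.45, so that replicate 1 was near the wild-type level and the others near rhd6, a difference of 4.05 (SE 0.65, limma adjusted p = 8.45e-05). Without that replicate the difference was 5.87, and without replicate 3 it was 2.88. In mrh3 it gave 7.14, 6.74 and 5.81, all above wild type, a difference of 3.5 (SE 0.65, limma adjusted p = 0.000529). AT5G40960 gave 6.54, 7.71 and 8.61 in csld3, a difference of 3.71 (SE 0.6, limma adjusted p = 9.52e-05), and 6.6, 6.2 and 5.03 in mrh3, a difference of 2.04 (SE 0.6, limma adjusted p = 0.0496). All arrays of both lines lay above the wild-type arrays. The call in mrh3 was lost without mrh3 replicate 1 or 2 or any wild-type array, at differences from 1.71 to 2.16. Of all genes, 11 (0.0513%) were called higher in rhd6, csld3 and mrh3, and AT5G46670 and AT5G40960 were 2 of them. Their values had a correlation of 0.901 over the 63 Michigan arrays, as a description, and these include arrays on which the rule chose both genes.

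The other calls were nearer the threshold. In csld3, AT4G22212 (1.83, adjusted p = 0.03) and ATLP-1 (1.65, adjusted p = 0.0383) were higher and AT3G01930 (-1.38, adjusted p = 0.0341) was lower in limma, but all 3 calls were lost without csld3 replicate 1, at 1.69, 1.57 and -1.02, or without wild-type replicate 2, at 1.41, 1.25 and -1.31. Without csld3 replicate 2 the first pair were lost, at 1.82 and 1.45, and without wild-type replicate 3 ATLP-1 and AT3G01930, at 1.49 and -1.32. The csld3 and wild-type arrays of ATLP-1 overlapped. In mrh3, the aspartyl protease AT3G54400 was lower, at 6.51, 6.53 and 7.27 against 8.38, 7.88 and 8.91, a difference of -1.62 (SE 0.35, limma adjusted p = 0.00486), which was -1.36 and not called without wild-type replicate 3. The number of pairs called was 4 without wild-type replicate 2 or 3, and 5 without csld3 replicate 1. In csld3, 8 genes of replicate 1 lay more than 1 below both other arrays. On the scale from hairy lines to cpc try, the 11 lines had median positions from 26.3 (rhd2) to 51.9 (cow1), around the 31.4 of wild type.

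Pathway lists around the non-hair genes were counted next. Of 28 wax and cuticle genes, LTPG1, KCS5 and HTH are among the 57. KCS5 and CER4, a reductase that makes primary wax alcohols, were lower in gl2 than in wild type, CER4 by -3.27 (adjusted p = 0.0131 in limma), and none was higher. In gl2 against rhd6, KCS5, CER4 (-3.86, adjusted p = 0.000146) and LTPG1 were lower, and in rhd6 against wild type GPAT4, an acyltransferase of cutin synthesis, was higher (1.09). CER4 passed 5 of the 6 differences of the rule. The list medians were 0.02, -0.19 and 0.17, against 0.01, -0.02 and 0.04 over all genes.

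SOT16 was the 1 gene of 22 measured glucosinolate genes among the 57, and it passed in no comparison. MYB122, a regulator of indole glucosinolates, was the 1 gene of that list called, higher in rhd6 than in wild type (2.25, adjusted p = 0.00456 in limma) and lower in gl2 than in rhd6 (-3.07, adjusted p = 4.75e-05). CYP83B1, an enzyme of the indole branch, passed 5 of the 6 differences but neither comparison of gl2 (-0.91 against wild type and -0.31 against rhd6). Of 14 measured flavonol genes, FLS3 was the only one called, against wild type in rhd6 and against rhd6 in gl2. FLS1, the main flavonol synthase, differed by 0.46 between gl2 and rhd6 and was not called. None of the 8 measured ER body genes, BGLU18 among them, was called in gl2, rhd6 or the hormone comparisons by limma. No epidermis, lateral root cap, endodermis, cortex, stele or stress marker was called in these comparisons either.

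GL2 itself is 1 of the named loci, and its group means were set beside those of the non-hair genes over the 17 Michigan groups the rule did not use. Pearson's r was highest for ATLP-1 (0.64), BGLU18 (0.63) and AT3G19320 (0.61), and lowest for AT1G06550 (-0.65). The median was 0.13 over the 57 genes and 0.02 over all genes, and r exceeded 0.5 for 7 of the 57 (12.3%) against 9.49% of all genes. The groups share normalization and the rhd6 genotype in 4 of the 17. Between pairs of non-hair genes the median r over the same groups was 0.37, with no value for pairs of all genes to set beside it. The most alike pair was RALF1 and AT2G45220 (0.91 over 63 arrays). Those 63 include the Michigan arrays that the rule used, on which the genes were chosen to vary together.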

How the data were processed

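Log2 signals of 75 Affymetrix ATH1 arrays were analysed. Per the methods, the authors made the deposited log2 values by RMA (robust multichip average) with quantile normalization and custom probe sets, 1 per gene. Versions are not given in the sources used here, and how the arrays of the facilities were divided for normalization is not stated, so Duke and Michigan were kept apart. RMA pulls low signals together, so small differences of dim genes are understated. The values cover 21440 genes beside 64 control probe sets, which were dropped. Of the genes, 219 loci share all 75 values with another locus.

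Lines were compared with limma 3.58.1 in R 4.3.3 (lmFit, eBayes), estimating every group's mean from the 63 Michigan arrays jointly, with Benjamini-Hochberg adjustment over all genes. Lines were called at 2-fold and 5% FDR and hormone treatments at 2-fold and 0.5% FDR. The study gives these for its table of mutant lines and for the hormones. Its methods also allow p under 0.01 for single genotypes, and its counts for rhd6 against wild type used 2-fold alone. limma took the place of the significance analysis of microarrays used there. The 3 arrays of a group are labelled biological replicates, and their number limits the precision of every value. Same-numbered arrays deviated together in rhd6 and wild type (r of 0.493, 0.472 and 0.55) and in cow1 or lrx1 and wild type. In lrx1 not every array was closest to its own number. Whether such arrays were paired is not stated, and the tests were unpaired. The replicate number as a block changed no call in these lines. It was a single factor over all 63 Michigan arrays, so it cannot model a pairing of particular lines.

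The genes, function groups and lists were chosen with earlier results of these data known. Full values were given for the 4 genes of each function group with the lowest mean difference, the genes called, and the 5 lowest adjusted p of a comparison with more. Genes outside this rule were named after their values were seen. Of the 57 genes, 56 matched the RefSeq annotation (TAIR10.1). The scripts were tested on simulated data.

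Alternatives were a stricter fold, medians, a median shift, quantile normalization, dim genes left out, 1% FDR for the list, a replicate block, the array series as a factor, only the groups compared, an unadjusted p under 0.01, and leaving out each array in turn. The comparison of IAA with ACC was added after seeing the data.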

Additional observations from a re-analysis of the deposited data

Results flagged for a closer look

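For 13 of the 57 non-hair genes (22.8%), every gl2 array was below and every rhd6 array above all wild-type arrays, a pattern found in 158 of all genes (0.737%). These genes drew attention because the 2 mutants lay on opposite sides of wild type, whose arrays both comparisons share. Of the 13, 12 (92.3%) also passed 2-fold at 5% FDR in limma between gl2 and rhd6, as did 84 of the 158 (53.2%). The pattern already puts every gl2 array below every rhd6 array, so this comparison is not separate evidence for these genes. The log2 differences of gl2 from rhd6 were -5.39 for AT2G45220, -3.08 for TBL38 and -1.92 for FLA16 among cell wall genes. In kinases and signalling they were -4.49 for AT3G19320, -3.3 for AT2G42060, -3.13 for AT1G66460 and -1.8 for MEE62. FLS3 differed by -2.9, KCS5 by -2.55 and GSR2 by -1.92, and the unannotated genes AT3G25930 and AT1G66880 by -2.4 and -2.35. Against wild type alone, AT2G45220, AT3G19320 and KCS5 were also called in gl2 and FLS3 in rhd6, and the other 8 in neither.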

How the results depend on the processing

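The list held 57 genes, 10 with a log2 difference of at least 1.5 in place of 1, and between 42 (without wer myb23 replicate 3 at Michigan) and 70 (without cpc try replicate 3 at Michigan) when 1 array was left out. With medians it held 54 genes, of which 39 were shared. With only the groups compared in the fit, the number called was 8 in gl2 against wild type, 5 in rhd6 against wild type and 5 in the other 11 mutant lines. A median shift gave 2 genes for gl2 against wild type. The array series as a factor gave 4 pairs in the other 11 lines. At 2-fold with an unadjusted p under 0.01 the numbers were 17 for gl2 and 9 for rhd6 against wild type, 30 pairs in the other 11 lines, 5 after IAA, 1 after ACC and 1 for IAA against ACC. With 1 array left out they ranged from 2 to 3 for gl2 and 2 to 4 for rhd6 against wild type, 22 to 28 for gl2 against rhd6, and 4 to 9 pairs for the other 11 lines, 9 without mrh3 replicate 3. The cause of these shifts was not tested. The comparison of gl2 with rhd6 stayed between 22 and 31 genes under every alternative run, and no named gene changed direction.

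With the replicate number as a block, 3 genes were called in gl2 against wild type, 3 in rhd6 against wild type, 28 in gl2 against rhd6, none after either hormone and 7 pairs in the other 11 lines. XTH33 in gl2 (adjusted p = 0.0571 in limma) and AT5G40960 in mrh3 (adjusted p = 0.0539) were no longer called. These lines share only a replicate number with wild type. Of 16 comparisons, 3 had all same-numbered correlations over 0.1 and 2 had every array closest to its own number.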
